A study of Homo sapiens with 8 samples.

Results

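Hyaluronan, a long sugar polymer of the matrix around cells, is built, cut and bound by a small set of gene products, and 9 of their genes were followed here among the 23391 genes counted in DU145 cells. DU145 is an established androgen-independent human prostate cancer cell line. The 9 genes were chosen by name: KIAA1199 (current symbol CEMIP), TMEM2 (CEMIP2), the synthases HAS1, HAS2 and HAS3, the hyaluronidases HYAL1, HYAL2 and HYAL3, and the receptor CD44. KIAA1199 was included because it was higher in cells that carried Esrrb, so its values in untreated cells are a description and not a test.

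The study asked which transcripts respond to Esrrb (estrogen-related receptor beta, an orphan nuclear receptor) and to DY131, an agonist of estrogen-related receptors. DU145-Esrrb cells carried a stable Esrrb transgene in the pcDNA3.1-zeo vector, DU145-pc3.1 cells carried the empty vector, and both were selected with Zeocin. The transfectants of each vector were pooled rather than cloned, and are called a pool here. Each pool was sequenced untreated and after 3 µM DY131, for a time not given in the sources used here. The study's methods describe phenol-red-free medium with charcoal-stripped serum for the cells that gave RNA. DY131 was also diluted in medium with charcoal-stripped serum. The 4 groups held 2 libraries each, with 7858743 to 11551690 reads on genes per library. The study describes 2 biological replicates of the cells with each vector, but its methods do not say at which step those of the DY131-treated cells were separated, so the p-values measure only the spread between these libraries. The 2 DU145-Esrrb + DY131 libraries share a column name in the deposited table and are called replicate A and replicate B.

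The libraries carried their labels' ESRRB reads, 99 to 143 in the 4 libraries with the transgene and 0 to 3 in the other 4. Epithelial markers were high, with KRT8 between 1060 and 1630 cpm (reads scaled to library size), while the prostate luminal markers KLK3 and TMPRSS2 were at or near 0 (at most 0.13 cpm), and the leukocyte marker PTPRC did not exceed 0.113 cpm. The DU145-pc3.1 + DY131 libraries differed more from each other than those of the other groups did (chi-square per degree of freedom 7.10, against 1.29 to 2.60). In the DU145-Esrrb + DY131 libraries, genes whose transcripts hold many exon junctions read lower: across 13665 tested genes the Spearman correlation between the share of 50-base windows that cross a junction and the log2 fold change was -0.475 for Esrrb in DY131-treated cells and -0.374 for DY131 in DU145-Esrrb, against -0.038 for Esrrb in untreated cells. Some results that involve those libraries are therefore given also with an offset for that share. Others are given without it, and some of those moved with it as well. With that offset 3448 genes were higher and 2219 lower at an adjusted p under 0.05 with Esrrb in DY131-treated cells, in place of 3480 and 3503, and 4709 were higher and 2911 lower with DY131 in DU145-Esrrb, in place of 4044 and 4084. In RNA from whole cultures, fewer cells with a transcript and less of it per cell cannot be told apart.

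Hyaluronan is extruded through the plasma membrane by the 3 HAS synthases, from UDP-glucuronic acid and UDP-N-acetylglucosamine. Outside the cell it can be depolymerised by KIAA1199, a secreted and membrane-associated protein, by its relative TMEM2, a cell-surface protein, and by HYAL2, which is anchored at the cell surface, while HYAL1 cuts the fragments further in lysosomes. CD44 is the main cell-surface receptor for hyaluronan, and it is carried by many carcinoma cells.

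The region just before the KIAA1199 start is shown because its letters can be searched for the sequence that the receptor recognises. It spans chr15:80779120-80779369 on the plus strand of GRCh38.p14 (RefSeq start), with the TATA box letters TATAAAA in capitals 30 bases before that start. The GENCODE 29 interval of the gene begins at 80779343, inside those letters.
KIAA1199: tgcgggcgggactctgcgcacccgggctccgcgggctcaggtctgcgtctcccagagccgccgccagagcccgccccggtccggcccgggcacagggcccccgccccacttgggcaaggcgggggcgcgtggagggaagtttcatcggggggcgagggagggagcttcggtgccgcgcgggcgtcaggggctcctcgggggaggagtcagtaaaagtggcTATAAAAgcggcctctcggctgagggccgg
These 250 bases were 74.4% G or C. TATAAAA was found on either strand in 4.52% of the 35116 promoters of the RefSeq table, each 250 bases before to 50 bases after a start.

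Estrogen-related receptors recognise the core AGGTCA, preferably within TCAAGGTCA. On both strands, AGGTCA was found in 13.8% of the 35116 promoters, AAGGTCA, which contains it, in 3.92%, and TCAAGGTCA, which contains both, in 0.353%. KIAA1199 held none of the 3 in its promoter window, nor did TMEM2, HYAL1, HYAL2 or HYAL3, which had 2 windows. HAS2 had no window among these promoters and was not searched. AGGTCA alone was found in CD44, HAS1 and HAS3, shown here with the match in capitals (TGACCT is the match on the opposite strand), as 30 bases along each gene at chr11:35139107-35139136, chr19:51724077-51724106 and chr16:69107548-69107577 of GRCh38.p14. The HAS1 gene lies on the minus strand and the other 2 on the plus strand.
CD44: tccctccgtcttAGGTCActgttttcaacc
HAS1: ccggctgggccgTGACCTcagagcccctgg
HAS3: tcgcggctgcttTGACCTggtgggcgccgc
A match says only that the letters are present, and no binding was measured in these libraries.

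Per length of transcript, HAS3 was the most abundant of the 9 genes and HAS1 the least. In DU145-pc3.1 the levels, in RPKM (reads scaled to library size and transcript length), were 63.1 for HAS3, 41.7 ± 0.950 for CD44, 39.2 ± 2.55 for TMEM2, 28.7 ± 2.13 for HYAL2, 11.7 ± 1.24 for HYAL3, 2.10 ± 0.0597 for KIAA1199, 0.744 ± 0.0423 for HAS2 and 0.416 ± 0.105 for HYAL1 (mean ± SD, n = 2). The ranges of CD44 and TMEM2 met at 41.1, so their order was not resolved, and in DU145-Esrrb TMEM2 (42.6) and CD44 (42.0) changed places within their spread. With the longest annotated transcript as the length, CD44 stood above HAS3 in all 4 groups, because the HAS3 length then rose from 2170 to 4220 bases. KIAA1199 was rank 6 in every group by either length.

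**Figure D1:**
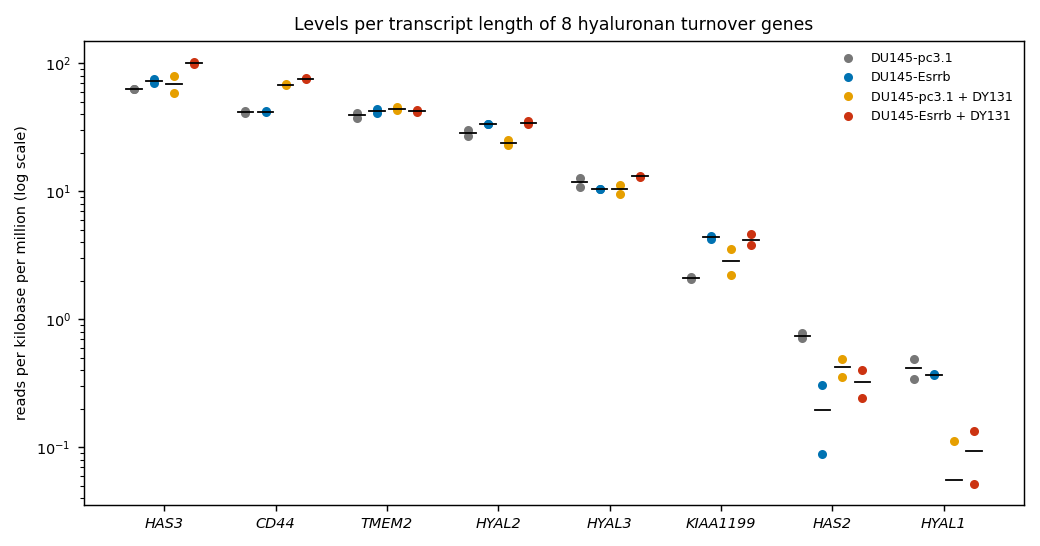
Level per length of transcript (RPKM, logarithmic axis) of 8 genes in the 4 groups, where each point is 1 library and each black line the mean of 2. HAS3, CD44, TMEM2 and HYAL2 lay above 20, HAS2 and HYAL1 lay below 1, and a HYAL1 library at 0 reads is not drawn.

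Among the 3 synthases HAS3 accounted for 98.8% to 99.9% of the summed level per length in the 8 libraries. Among the 3 HYAL genes HYAL2 accounted for 66.7% to 75.7%. TMEM2 stood far above its relative KIAA1199, which made up 5.10% of their sum in DU145-pc3.1 and 9.31% in DU145-Esrrb.

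KIAA1199, the hyaluronan depolymerase, lies on chromosome 15 (GENCODE 29 interval, GRCh38 80779343 to 80951776, plus strand). It read 156 and 176 times in DU145-pc3.1 (14.9 and 15.5 cpm), 381 and 335 times in DU145-Esrrb (32.3 and 30.8 cpm), 172 and 257 times in DU145-pc3.1 + DY131 (16.1 and 25.5 cpm), and 209 and 295 times in DU145-Esrrb + DY131 (27.3 and 33.4 cpm). All 4 libraries with the transgene lay above all 4 without it. The 2 empty-vector libraries with DY131 were far apart, replicate 1 being near the untreated controls and replicate 2 near the DU145-Esrrb + DY131 library of the lower level.

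In untreated cells, the contrast for which the gene was chosen, KIAA1199 was 2.08-fold higher with Esrrb (log2 fold change 1.05, SE 0.16). The only other of the 7 genes tested that passed there both thresholds of a call (adjusted p under 0.05, change of 2-fold or more) was HAS2, in the lower direction, while 80 of 13856 genes (0.577%) were called in all. By the adjusted p alone the same 2 passed, against 4.18% of all genes, 1.68% in the higher and 2.50% in the lower direction. In DY131-treated cells KIAA1199 was 1.47-fold higher with Esrrb (log2 0.55, SE 0.16, edgeR adjusted p = 0.00926). Those 4 libraries were not used in that choice but came from the same pools, so the test is not independent of it. That test did not rest evenly on the libraries. Without DU145-pc3.1 + DY131 replicate 1 the log2 difference was 0.24 (adjusted p = 0.0948), without replicate 2 of that group it was 0.92, and without DU145-Esrrb + DY131 replicate B it was 0.40 (adjusted p = 0.154). With the exon junction offset it was 0.66 (adjusted p = 0.00328), and 18.9% of the KIAA1199 windows cross a junction.

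With DY131 the log2 difference of KIAA1199 was 0.45 (SE 0.17) in DU145-pc3.1, where it was 0.081 without DY131 replicate 2 and 0.76 without replicate 1, and -0.055 (SE 0.15) in DU145-Esrrb. The latter minus the former was -0.50 (SE 0.23). These comparisons share libraries with the one that chose the gene, so no p-value is given.

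TMEM2, the cell-surface relative of KIAA1199 (chromosome 9, minus strand), stayed within a narrow band. It measured 214 and 195 cpm in DU145-pc3.1, 230 and 214 cpm in DU145-Esrrb, 225 and 238 cpm in DU145-pc3.1 + DY131, and 216 and 227 cpm in DU145-Esrrb + DY131. The ranges of the 2 pools overlapped with and without DY131. In DY131-treated cells the Esrrb difference was -0.061 on the log2 scale (SE 0.065), against 0.55 (SE 0.16) for KIAA1199. DY131 raised TMEM2 1.13-fold in DU145-pc3.1 (log2 0.18, adjusted p = 0.0394), a call kept in only 8 of the 19 alternatives run and lost by DESeq2. The value in DU145-Esrrb was -0.0022 (0.16 with the junction offset).

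**Figure D2:**
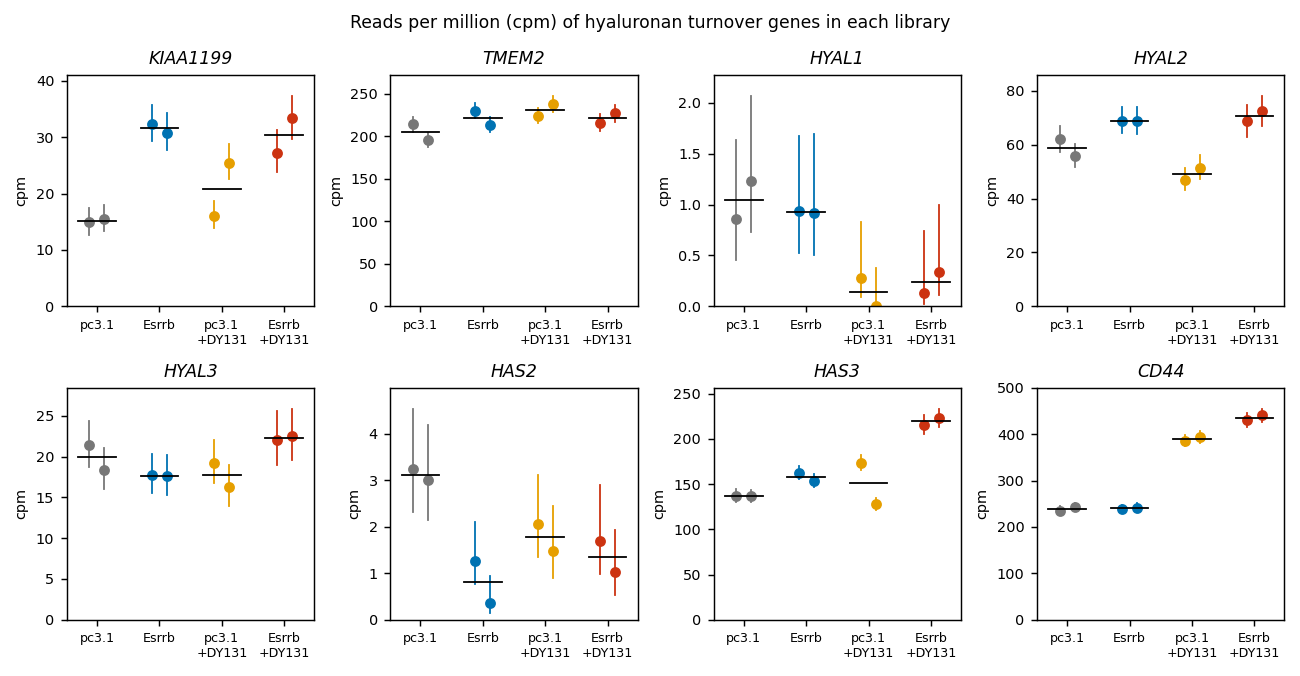
Level (cpm, from 0) of 8 genes in each library by group, where points are libraries, vertical lines the 95% Wilson intervals of their counts and black lines the group means. KIAA1199 lay above 27 cpm in all 4 libraries with the transgene, and CD44 lay above 380 cpm in all 4 DY131-treated libraries and below 245 cpm in the untreated ones.

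The genes next to KIAA1199 were followed as well. Of 8 listed neighbours 7 were tested, in the chromosomal order ARNT2, FAM108C1, then KIAA1199, MESDC2, MESDC1, IL16, STARD5 and TMC3. In untreated cells their median log2 difference with Esrrb was 0.38, against 0.001 for all genes tested, with FAM108C1 at 0.50 (SE 0.078), ARNT2 at 0.43 (SE 0.10) and MESDC1 at 0.38 (SE 0.083). In DY131-treated cells the median was 0.32, against 0.008 for all genes, and 4 of the 7 were higher at an adjusted p under 0.05 (25.1% of all genes were), with none lower. The 4 were FAM108C1, ARNT2, IL16 and MESDC2, and the first 2 of them kept that call with the junction offset, while with a library left out the adjusted p reached 0.191 for IL16 and 0.152 for MESDC2.

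FAM108C1, a depalmitoylating serine hydrolase gene directly before KIAA1199, read 94.5 and 94.7 cpm in DU145-pc3.1 and 130 and 138 cpm in DU145-Esrrb. With DY131 it read 71.9 and 88.1 cpm in DU145-pc3.1 and 145 and 142 cpm in DU145-Esrrb (log2 difference 0.84, SE 0.081, adjusted p = 6.83e-07, 0.66 with the junction offset). Its 4 libraries with the transgene lay above its 4 without, as for KIAA1199. ARNT2, a partner of bHLH-PAS transcription factors and the next gene outward, was 0.51 higher on the log2 scale in DY131-treated cells (SE 0.11, adjusted p = 0.00165), from 18.4 and 20.04 cpm to 28.4 and 26.3 cpm. On the other side MESDC2, a chaperone gene that overlaps the end of KIAA1199 on the opposite strand, was level in untreated cells (0.0080, SE 0.066). No source used here says whether the counting used strand, so reads in that overlap cannot be told apart.

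**Figure D3:**
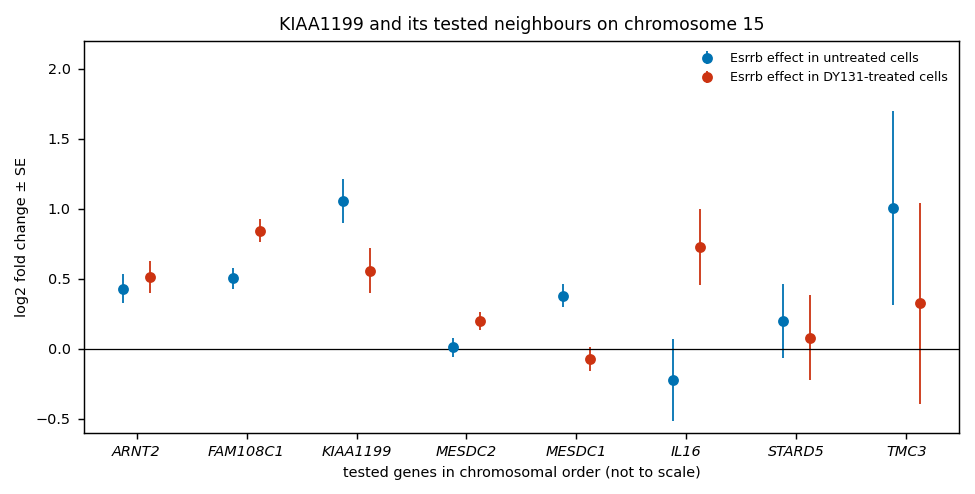
Log2 fold change with Esrrb (points, bars are SE) of KIAA1199 and its 7 tested neighbours in chromosomal order, in untreated (blue) and DY131-treated (red) cells. ARNT2 and FAM108C1, the 2 genes before KIAA1199, lay above 0 in both, while MESDC2, the next gene after it, lay near 0 in untreated cells.

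In DY131-treated cells 5 of the 7 tested hyaluronan genes were higher with Esrrb at an adjusted p under 0.05 and none lower, where 25.1% of all 13856 genes were higher and 25.3% lower. KIAA1199, chosen because it was higher in untreated cells of the same Esrrb pool, is in this count and in the median below. The others were HAS3, HYAL2, HYAL3 and CD44. The count fell to 2 without DU145-Esrrb + DY131 replicate B, to 3 without replicate A and to 3 with only the 4 libraries compared. In either direction 50.4% of all genes passed. By edgeR 0 of the 7 were called (8.21% of all genes were), since no change reached 2-fold. DESeq2 called 0 as well. The median of the 7 was 0.33 against 0.008 for all genes tested.

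HYAL2, the cell-surface hyaluronidase (chromosome 3, minus strand), measured 62.0 and 55.8 cpm in DU145-pc3.1, 68.9 and 68.8 cpm in DU145-Esrrb, 46.9 and 51.5 cpm in DU145-pc3.1 + DY131, and 68.6 and 72.3 cpm in DU145-Esrrb + DY131. The transgene libraries were higher than the empty-vector libraries with and without the agonist. In untreated cells the log2 difference was 0.23 (SE 0.076) and did not pass the threshold (edgeR adjusted p = 0.123). In DY131-treated cells the difference was 1.43-fold (log2 0.52, SE 0.080, adjusted p = 7.23e-05), and it stayed past the threshold in all 17 alternatives run, between 0.37 and 0.59. DY131 lowered HYAL2 in DU145-pc3.1 by 0.26 on the log2 scale (adjusted p = 0.0174), a call that was lost with DESeq2 (adjusted p = 0.0799), with only the 4 libraries compared (adjusted p = 0.0616), with an offset for length and GC content (-0.057) and without DU145-pc3.1 replicate 1 (-0.18) or DU145-pc3.1 + DY131 replicate 1 (-0.18). In DU145-Esrrb its log2 difference was 0.034 (SE 0.077). The HYAL2 transcript shares 23.1% of its 50-base windows with TUSC2, its neighbour on the same strand, whose values were 0.33 for Esrrb in DY131-treated cells and -0.35 for DY131 in DU145-pc3.1, so the reads of the 2 genes may be split between them.

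HYAL3, a hyaluronidase relative whose own activity is weak or absent, was near 20 cpm throughout. It measured 21.4 and 18.4 cpm in DU145-pc3.1, 17.7 and 17.6 cpm in DU145-Esrrb, 19.2 and 16.3 cpm in DU145-pc3.1 + DY131, and 22.0 and 22.5 cpm in DU145-Esrrb + DY131. The DU145-Esrrb + DY131 libraries were the highest of the 8. HYAL3 was 1.26-fold higher with Esrrb in DY131-treated cells (log2 0.33, SE 0.12, adjusted p = 0.0353) and 1.26-fold higher with DY131 in DU145-Esrrb (log2 0.34, SE 0.12, adjusted p = 0.0263), against 0.89-fold in DU145-pc3.1 (adjusted p = 0.307). With the junction offset these values were 0.16 (adjusted p = 0.320) and 0.20 (adjusted p = 0.172). HYAL3 overlaps NAT6 and IFRD2 on the same strand.

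HYAL1, the lysosomal hyaluronidase, was counted too seldom to enter the main test. It had 9 and 14 reads in DU145-pc3.1, 11 and 10 in DU145-Esrrb, 3 and 0 in DU145-pc3.1 + DY131, and 1 and 3 in DU145-Esrrb + DY131. Every DY131-treated library held fewer HYAL1 reads than every untreated one. The level with DY131 relative to without was 0.137 in DU145-pc3.1 (3 against 23 reads, 95% exact interval 0.0263 to 0.454) and 0.261 in DU145-Esrrb (4 against 21 reads, 0.0652 to 0.774), intervals that cover counting error only. Tested without the filter on low counts, the adjusted p was 0.00375 in DU145-pc3.1 and 0.0417 in DU145-Esrrb. Between the pools the untreated ratio was 0.880 (0.463 to 1.66), so no difference by Esrrb was detectable at this depth.

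Around the HYAL genes on chromosome 3, several other genes were lower with DY131. Of 13 tested neighbours 3 were called lower in DU145-pc3.1 (SEMA3B, ZMYND10 and SLC38A3) and 6 in DU145-Esrrb (those 3 with SEMA3F, CACNA2D2 and NPRL2), and none was called higher. With the junction offset NPRL2 was at -0.69 in DU145-Esrrb, short of 2-fold. With a library left out the adjusted p in DU145-pc3.1 reached 0.152 for ZMYND10 and 0.0597 for SLC38A3, and that of SLC38A3 in DU145-Esrrb reached 0.05002. SEMA3B, a secreted semaphorin gene, fell by 1.46 on the log2 scale in DU145-pc3.1 and by 1.81 in DU145-Esrrb (-1.45 with the junction offset). The backgrounds were 4.19% and 12.0% of all genes called in either direction, and the medians of the 13 were -0.33 and -0.32 against -0.003 and -0.004 for all genes tested. In DY131-treated cells CACNA2D2 alone of the 13 was called with Esrrb (-1.52, adjusted p = 0.000402). With the junction offset its value was -1.04 (adjusted p = 0.00975). In untreated cells SEMA3F was 1.27 higher on the log2 scale with Esrrb (SE 0.14).

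**Figure D4:**
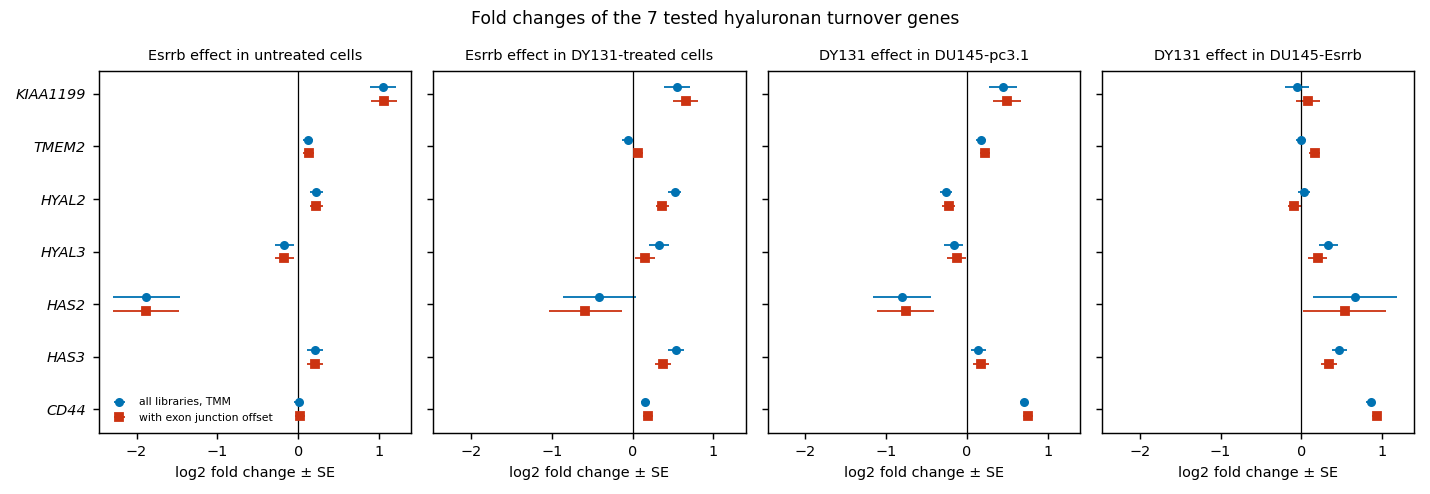
Log2 fold changes (SE as bars) of the 7 tested genes in the 4 main comparisons, from all libraries with TMM scaling (blue circles) and with the exon junction offset (red squares). CD44 was near 0 for Esrrb in untreated cells and near 0.7 to 0.9 for DY131 in both pools, and HAS2 had the widest errors.

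HAS2, the synthase that makes long hyaluronan in many tissues (chromosome 8), was scarce. It had 34 and 34 reads in DU145-pc3.1 (3.24 and 2.99 cpm), 15 and 4 in DU145-Esrrb (1.27 and 0.368 cpm), 22 and 15 in DU145-pc3.1 + DY131 (2.06 and 1.49 cpm), and 13 and 9 in DU145-Esrrb + DY131 (1.70 and 1.02 cpm). The untreated controls were the highest. DU145-Esrrb and DU145-pc3.1 + DY131 did not overlap, while DU145-Esrrb + DY131 overlapped both. In untreated cells the log2 difference with Esrrb was -1.88 (SE 0.41), which was -1.28 without DU145-Esrrb replicate 2 and -3.04 without its replicate 1. It no longer passed the thresholds with DESeq2, without DU145-Esrrb replicate 2 or without either DU145-pc3.1 replicate. In DY131-treated cells it was -0.41 (SE 0.45, adjusted p = 0.477). With DY131 it was -0.80 in DU145-pc3.1 (SE 0.36, adjusted p = 0.0918) and 0.67 in DU145-Esrrb (SE 0.52, adjusted p = 0.285).

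HAS2 overlaps the antisense gene HAS2-AS1, which had 13 and 7 reads in DU145-pc3.1, 3 and 3 in DU145-Esrrb, 5 and 11 in DU145-pc3.1 + DY131, and 8 and 4 in DU145-Esrrb + DY131. Its untreated difference with Esrrb, -1.75 on the log2 scale (SE 0.68), rested on 3 and 3 reads in DU145-Esrrb and did not pass the threshold (adjusted p = 0.198). In DY131-treated cells it was -0.081 (adjusted p = 0.926). Reads of the overlap cannot be told apart without strand.

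HAS3, which accounted for nearly all synthase reads (chromosome 16, plus strand), was highest where both Esrrb and DY131 were present. It measured 137 and 137 cpm in DU145-pc3.1, 163 and 154 cpm in DU145-Esrrb, 174 and 128 cpm in DU145-pc3.1 + DY131, and 216 and 223 cpm in DU145-Esrrb + DY131. Both libraries of the last group lay above the other 6. HAS3 was 1.45-fold higher with Esrrb in DY131-treated cells (log2 0.54, SE 0.097, adjusted p = 0.000275) and 1.39-fold higher with DY131 in DU145-Esrrb (log2 0.47, SE 0.096, adjusted p = 0.000587), and both stayed past the threshold in all 17 alternatives run. The former ranged from 0.34 without DU145-pc3.1 + DY131 replicate 2 to 0.77 without replicate 1, and the offset for junctions gave 0.38 and 0.34. In DU145-pc3.1 the DY131 difference was 0.14 (adjusted p = 0.271), with -0.085 without replicate 1 of the treated group and 0.34 (adjusted p = 3.03e-05) without its replicate 2. The difference between the 2 DY131 effects was 0.33 (SE 0.14, adjusted p = 0.0763) and did not pass the threshold.

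HAS1 had 0 reads in all 8 libraries, which allows up to 0.0367 cpm over the 8 together, for counting error only.

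CD44, the hyaluronan receptor (chromosome 11, plus strand), rose with DY131 in both pools. It measured 235 and 243 cpm in DU145-pc3.1, 239 and 242 cpm in DU145-Esrrb, 386 and 394 cpm in DU145-pc3.1 + DY131, and 431 and 441 cpm in DU145-Esrrb + DY131. The treated and untreated libraries did not overlap, and the untreated pools were alike within their spread (log2 difference 0.0076, SE 0.055). DY131 raised CD44 1.63-fold in DU145-pc3.1 (log2 0.71, SE 0.054, adjusted p = 2.45e-07) and 1.81-fold in DU145-Esrrb (log2 0.86, SE 0.054, adjusted p = 5.87e-09). The first stayed past the threshold in all 19 alternatives run, between 0.60 and 0.76, and the second in all 17, between 0.73 and 0.93. With Esrrb in DY131-treated cells CD44 was 1.12-fold higher (log2 0.16, SE 0.053, adjusted p = 0.0215), a call lost with only the 4 libraries compared (adjusted p = 0.0950) and without DU145-Esrrb + DY131 replicate A (adjusted p = 0.0721) or B (adjusted p = 0.143). The difference between the pools' responses was 0.15 (SE 0.076, adjusted p = 0.141) and did not pass the threshold. The counts cover the whole gene, so variant exons of CD44 were not separated.

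With DY131 in DU145-pc3.1, 2 of the 7 tested genes were higher (CD44 and TMEM2, where 18.9% of all genes were) and HYAL2 was lower (18.5%), with 37.4% of all genes past the threshold either way. In DU145-Esrrb 3 were higher (CD44, HAS3 and HYAL3, background 29.2%) and none lower (29.5%), with 58.7% either way. By edgeR 0 of the 7 were called in either pool, against 4.19% and 12.0% of all genes. Leaving out KIAA1199, the response to DY131 differed between the pools at an adjusted p under 0.05 for HYAL3 and for none of the other 5, where 33.7% of all genes did (16.1% more positive and 17.6% more negative in DU145-Esrrb), and none of them passed the 2-fold threshold as well, as 6.28% of all genes did. Against the untreated empty-vector control, the DU145-Esrrb + DY131 cells held KIAA1199 2.00-fold higher (log2 1.00, SE 0.17), a description since the controls are those that chose the gene, which was 0.97 without DU145-pc3.1 replicate 1 and 0.84 without DU145-Esrrb + DY131 replicate B. HAS2 was at 0.431 of its control level (log2 -1.22, SE 0.41, adjusted p = 0.0173) and was called, as were 12.8% of all genes. The HAS2 call was lost by DESeq2 (adjusted p = 0.0941) and without DU145-pc3.1 replicate 1 (-1.16, adjusted p = 0.0697) or DU145-Esrrb + DY131 replicate B (-0.87, adjusted p = 0.176). CD44 (0.87), HAS3 (0.68) and HYAL2 (0.26) were also higher at an adjusted p under 0.05 in that comparison, where 59.3% of all genes passed (29.1% higher and 30.1% lower), and in which HYAL2 was lost with the junction offset (0.14).

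Enzymes that supply the synthases with their sugar nucleotides changed less than the 2-fold threshold in every comparison. Of 16 tested, 4 were higher and 5 lower at an adjusted p under 0.05 with DY131 in DU145-pc3.1, and 4 were higher and 7 lower in DU145-Esrrb, where 18.9% and 18.5% of all genes did so in the former and 29.2% and 29.5% in the latter. UGDH, which makes UDP-glucuronic acid, fell by 0.81 and by 0.71 on the log2 scale (adjusted p = 1.54e-06 and 1.30e-06), in both pools. UAP1, which makes UDP-N-acetylglucosamine, rose by 0.53 and 0.40 (adjusted p = 3.75e-05 and 0.000179). HK2, a hexokinase, rose by 0.77 in DU145-Esrrb (adjusted p = 5.18e-07). With Esrrb in DY131-treated cells 4 were lower (background 25.3%), among them GPI, the glucose phosphate isomerase (-0.45, adjusted p = 7.90e-06). In that comparison 1 was higher (25.1%), GNPNAT1 of the hexosamine pathway (0.31, adjusted p = 0.000655), and it no longer passed with the junction offset (0.14, adjusted p = 0.108).

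Of 8 tested genes that break hyaluronan fragments down or are related to hyaluronidases, 2 were higher and 3 lower at an adjusted p under 0.05 with DY131 in DU145-pc3.1, and 3 were higher and 4 lower in DU145-Esrrb, where 37.4% and 58.7% of all genes passed in either direction. HEXA, a subunit of lysosomal hexosaminidase, fell by 0.95 on the log2 scale with DY131 in DU145-Esrrb (adjusted p = 2.32e-08) and by 0.45 in DU145-pc3.1 (adjusted p = 7.50e-05).

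Other hyaluronan receptors and binding proteins were mostly not expressed at a testable level. Of 30 listed, 11 were tested, and LYVE1, STAB2, TLR4 and VCAN were among those that did not pass the filter. PRG4, a lubricating glycoprotein that binds CD44, was called higher with DY131 in DU145-Esrrb (log2 1.98, SE 0.19, adjusted p = 4.56e-07), from 3.14 and 4.32 cpm to 14.2 and 15.03 cpm, and measured -0.085 in DU145-pc3.1 (adjusted p = 0.783). The difference between those responses was 2.06 (adjusted p = 7.54e-05). TLR2, a receptor for hyaluronan fragments, was also called higher there (1.47, adjusted p = 0.000345), and ITIH4, of the inter-alpha-inhibitor family, was called lower (-2.49, adjusted p = 0.00292) on 1 to 19 reads per library. HMMR, the motility receptor for hyaluronan, was 0.90 lower on the log2 scale with Esrrb in DY131-treated cells (adjusted p = 5.04e-07), or 0.60 lower with the junction offset, and higher with DY131 in DU145-pc3.1 (0.41, adjusted p = 0.000763).

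Genes that shed CD44, splice it or tie it to the cytoskeleton moved with DY131 in both directions. Of 15 tested, 7 were higher and 3 lower at an adjusted p under 0.05 in DU145-pc3.1, and 6 were higher and 7 lower in DU145-Esrrb, against 18.9% and 18.5% of all genes in the former and 29.2% and 29.5% in the latter. ESRP1, a splicing regulator that favours the variant exons of CD44, had 40 and 34 reads in DU145-pc3.1, 19 and 16 in DU145-Esrrb, 94 and 163 in DU145-pc3.1 + DY131, and 3 and 1 in DU145-Esrrb + DY131. It rose with DY131 in DU145-pc3.1 (log2 1.87, adjusted p = 7.85e-05) and was lower with it in DU145-Esrrb (-2.61, adjusted p = 0.00872, or up to 0.104 with a library left out), and the 2 responses differed (-4.48, adjusted p = 0.000485). ESRP2, the other splicing regulator of the list, was more abundant, at 62.8 cpm in DU145-pc3.1 and 62.6 cpm in DU145-Esrrb. With DY131 it averaged 86.6 and 82.1 cpm, against 12.5 and 0.252 cpm for ESRP1. Its log2 difference with DY131 was 0.52 in each pool with the junction offset (adjusted p = 5.36e-05 and 2.66e-05). ADAM17, a sheddase, fell by 0.93 in DU145-Esrrb (adjusted p = 4.03e-08), while MSN (moesin), which links CD44 to actin, rose by 0.58 there (adjusted p = 2.90e-07). MMP14, a membrane protease that can cut CD44, was 1.06 higher with Esrrb and DY131 together against the untreated control (adjusted p = 3.23e-07). Further calls fell on genes with few reads. ANK3 was called lower with DY131 in both pools, but with a library left out its adjusted p reached 0.0720 in DU145-pc3.1 and 0.290 in DU145-Esrrb, and in the latter it was 0.0562 with the junction offset. SRGN was called lower with DY131 in DU145-Esrrb, with an adjusted p of up to 0.101 with a library left out. With Esrrb in DY131-treated cells ANK1, ESRP1 and SRGN were called lower.

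The 5 tested genes whose log2 cpm followed KIAA1199 most closely over the 8 libraries were FAM102B (Pearson r = 0.977), RBM24 (0.965), UBL3 (0.963), RPN1 (0.959) and GATM (0.953). UBL3, a membrane-anchored ubiquitin-like protein, averaged 65.0 cpm in DU145-pc3.1, 101 cpm in DU145-Esrrb, 71.5 cpm in DU145-pc3.1 + DY131 and 94.8 cpm in DU145-Esrrb + DY131. Its log2 difference with Esrrb in untreated cells, 0.63, was the largest of the 5. The others were 0.53 for GATM, 0.30 for RBM24, 0.23 for FAM102B and 0.14 for RPN1, all below that of KIAA1199. By Spearman's rho only RPN1 (0.952) remained among the 5 highest. Among the hyaluronan genes HAS2 ran opposite to KIAA1199 (r = -0.807) and HYAL2 along with it (0.679). The points share libraries and scaling, so these are descriptions.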

How the data were processed

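RNA of 8 DU145 libraries had been sequenced by the authors, and the deposited table held raw read counts per gene, made from reads aligned to hg18 with TopHat2 and counted with MULTICOM-MAP. Counts were tested here with edgeR 4.0.16 (quasi-likelihood F test, TMM, Benjamini-Hochberg adjustment) in 1 model of all 4 groups. Genes entered where 2 or more libraries reached 1 cpm (13856 of 23391, and 7 of the 9 hyaluronan genes). A call needed an adjusted p under 0.05 and a change of 2-fold or more, and SE was taken as the log2 fold change over the square root of F. cpm used TMM-scaled library sizes. Transcript lengths and exon junctions came from GENCODE 29, promoters from RefSeq on GRCh38.p14. Gene names were matched through RefSeq identifiers (22019 genes) or symbols (872). Alternatives were the exact test, DESeq2 1.42.0, other scalings, filters and offsets, and each library left out. The scripts were tested on simulated data. Named genes were the 9, the 5 most like KIAA1199, and from each list the called genes or the 2 with the smallest adjusted p, with neighbours, overlapping genes and a few further list genes named after their values were seen. The genes and lists were chosen with earlier results of these data known. Same-numbered libraries did not deviate together (correlations -0.0685 to 0.0917), so no pairing was used. Some genes of the lists and markers are not reported here.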

Additional observations from a re-analysis of the deposited data

Results flagged for a closer look

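The response of HYAL3 to DY131 differed between the pools: the log2 difference in DU145-Esrrb minus that in DU145-pc3.1 was 0.50 (SE 0.17, edgeR interaction test, adjusted p = 0.0344), where 33.7% of all 13856 genes tested differed at an adjusted p under 0.05. HYAL3 was higher with DY131 in both DU145-Esrrb libraries and overlapped the controls in DU145-pc3.1. With the exon junction offset the difference was 0.33 (adjusted p = 0.179) and by DESeq2 0.49 (adjusted p = 0.170), so the call was lost. The part of the junction shift in the DU145-Esrrb + DY131 libraries in this result was not tested further.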

How the results depend on the processing

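Of the 9 genes 7 were tested. For Esrrb in untreated cells 2 were called (adjusted p under 0.05, change of 2-fold or more), against 0.577% of all genes. For Esrrb and DY131 against the untreated control 2 were called (12.8% of all genes), and 0 in the other 4 comparisons (4.19% to 12.0%). KIAA1199, chosen because it was higher with Esrrb in untreated cells, is in both counts of 2, so they are descriptions. Without the fold change threshold the number was 5 for Esrrb in DY131-treated cells (50.4% of all genes) and 5 against the untreated control (59.3%), both with KIAA1199. It was 3 for DY131 in each pool (37.4% in DU145-pc3.1, 58.7% in DU145-Esrrb) and 1 for the interaction (33.7%). For Esrrb in untreated cells the number called was 1 with DESeq2 and 1 when each library had to hold 10 counts. Against the untreated control it was 1 with the exact test, DESeq2, library totals alone, only the 4 libraries compared, or the length and GC offset, and 0 when each library had to hold 10 counts. Without the filter on low counts it was 1 for DY131 in DU145-pc3.1, 1 in DU145-Esrrb and 1 for the interaction. Leaving out 1 library gave 1 to 2 for Esrrb in untreated cells, 0 to 2 against the untreated control, and 0 to 1 for DY131 in DU145-Esrrb and for the interaction. Of these, HAS2 rests on few reads. The cause of the other changes was not tested. With the replicate block in the 6 numbered libraries the counts were 2 for Esrrb in untreated cells and 0 for DY131 in DU145-pc3.1, as without it, and over all genes 66 against 68 and 542 against 554 were called. Over all genes, the 80 called for Esrrb in untreated cells became 48 with DESeq2, 43 when each library had to hold 10 counts and 46 to 125 with a library left out. The 10-count filter also took the counts from 1137 to 721 for Esrrb in DY131-treated cells, from 580 to 315 and from 1666 to 1090 for DY131 in DU145-pc3.1 and DU145-Esrrb, and from 1778 to 1178 against the untreated control, with fewer genes tested (12460).

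Directions near 0 turned for TMEM2 with the junction offset (0.067 for Esrrb in DY131-treated cells, 0.16 for DY131 in DU145-Esrrb), for KIAA1199 with DY131 in DU145-Esrrb (0.088 with the junction offset), for HYAL3 with DY131 in DU145-pc3.1 (0.056 with the length and GC offset), and for HYAL2 with DY131 in DU145-Esrrb (-0.028 with library totals alone, -0.0024 when each library had to hold 10 counts, -0.084 with the junction offset). Leaving out a library gave CD44 -0.014 to 0.031 for Esrrb in untreated cells, HAS3 -0.085 to 0.34 for DY131 in DU145-pc3.1, and for DY131 in DU145-Esrrb KIAA1199 -0.21 to 0.078, TMEM2 -0.053 to 0.051 and HYAL2 -0.0059 to 0.071. Of 722 values of single genes under an alternative, 620 kept direction and side of the threshold.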
